A study of Homo sapiens with 2 samples.

Results

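The VPS, STX and SYT genes encode sorting factors of endosomes and vacuoles, syntaxins and synaptotagmins. Members were taken from the probe-to-gene table as protein-coding genes whose symbol is VPS, STX or SYT followed by a digit, and 64 of the 11916 protein-coding genes in the table met this rule: 34 VPS, 14 STX and 16 SYT genes. The 3 families were selected on measured values, because an earlier scan of gene symbols on these same arrays had placed VPS among the lowest and STX and SYT among the highest families by difference between the arrays. Every difference below is therefore a description of the arrays and carries no test.

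The cells were MDA-MB-231, a human breast cancer line long established in culture. They were given either a miR-544 antagomir (antagomirs are oligonucleotides that pair with a microRNA and block it) or compound 1, which is known here only by that name. Both groups received the agent 24 hours before hypoxia (less than 1% oxygen), which lasted 5 days. Of 2 arrays, 1 represents each treatment. The design text speaks of 3 samples pooled before hybridisation, and neither untreated nor normoxic cells are part of the comparison, so treatment, pool and hybridisation cannot be told apart and there is no replicate error. Less RNA per cell and fewer cells of a kind also cannot be told apart in such RNA.

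VPS proteins were named after yeast mutants that missort vacuolar proteins. They build the retromer and Commander coats, which recycle cargo from endosomes, the ESCRT complexes, which sort cargo into multivesicular bodies, and tethers such as HOPS, CORVET, GARP and EARP, which bring vesicles to their target membrane. Syntaxins are the target-membrane SNAREs that drive the fusion step. Synaptotagmins are membrane proteins with C2 domains, several of which bind calcium and trigger exocytosis, and they are best known from neurons and secretory cells.

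The labels do not say which miR-544 the antagomir opposes. The mature forms in RefSeq (GRCh38.p14) are shown because they are the possible targets, with the seed, bases 2 to 8, in capitals. They lie at chr14:101048712-101048733 and chr3:124732486-124732507, both on the plus strand, and their seeds differ.
hsa-miR-544a: aUUCUGCAuuuuuagcaaguuc
hsa-miR-544b: aCCUGAGGuugugcauuucuaa

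Each transcript cluster has 1 deposited value for each array. The values run from 0.372 to 14.20, the range of log2 signal, so each fold assumes base 2. A gene entered when its higher value reached the 50th percentile of cluster levels, a log2 level of 5.597, and 58 of the 64 members did, out of 9584 protein-coding genes. All 34 VPS genes entered, as did 13 STX and 11 SYT genes. The array medians were 5.59 and 5.62. Of the markers of the mesenchymal-like line that were analysed, VIM, CD44, AXL, MSN and ANXA1 entered and S100A4 did not. The luminal receptor genes ESR1 and PGR did not enter, whereas EPCAM, GATA3, FOXA1, KRT19, CLDN3 and CLDN4 entered. FOXA1 entered only through its value after compound 1 (5.66, against 5.41 after antagomir).

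The families lay on different sides of the other genes. VPS genes were mostly lower on the compound 1 array, with 29 of 34 lower (85.3%) where 58.9% of all entering protein-coding genes were, and a median log2 difference of -0.13 where that of all genes was -0.041. Syntaxin genes leaned the other way, with 8 of 13 higher (61.5%) where 40.0% of all genes were, and a median of 0.070. Synaptotagmin genes were higher in 9 of 11 (81.8%), with a median of 0.18. SYT7 among them entered only through its value after compound 1, so its difference had to be positive. With both arrays required to reach the entry level, 10 synaptotagmin genes entered, of which 2 were lower, with a median of 0.145. The family medians of all entering members kept their sign after centring, quantile normalization and cyclic loess.

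The differences were small. Past 1.2-fold, a log2 difference of 0.263, 9 VPS genes were lower (26.5%, beside 9.12% of all genes) and 0 were higher (beside 5.23%). Among syntaxins 1 was lower and 2 were higher, and among synaptotagmins 0 were lower and 2 were higher, SYT7 included. With both arrays required to reach the entry level 1 synaptotagmin was higher, beside 4.17% of all genes. STX10, at 1.1995-fold lower, and SYT10, at 1.1992-fold higher, lay just inside that threshold. At 1.1-fold 16 VPS genes were lower and 1 higher, beside 27.7% and 15.5% of all genes. Past 1.5-fold there were 0 members in either direction (beside 0.365% lower and 0.167% higher), and past 2-fold 0 members and 0% of all genes.

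**Figure D1:**
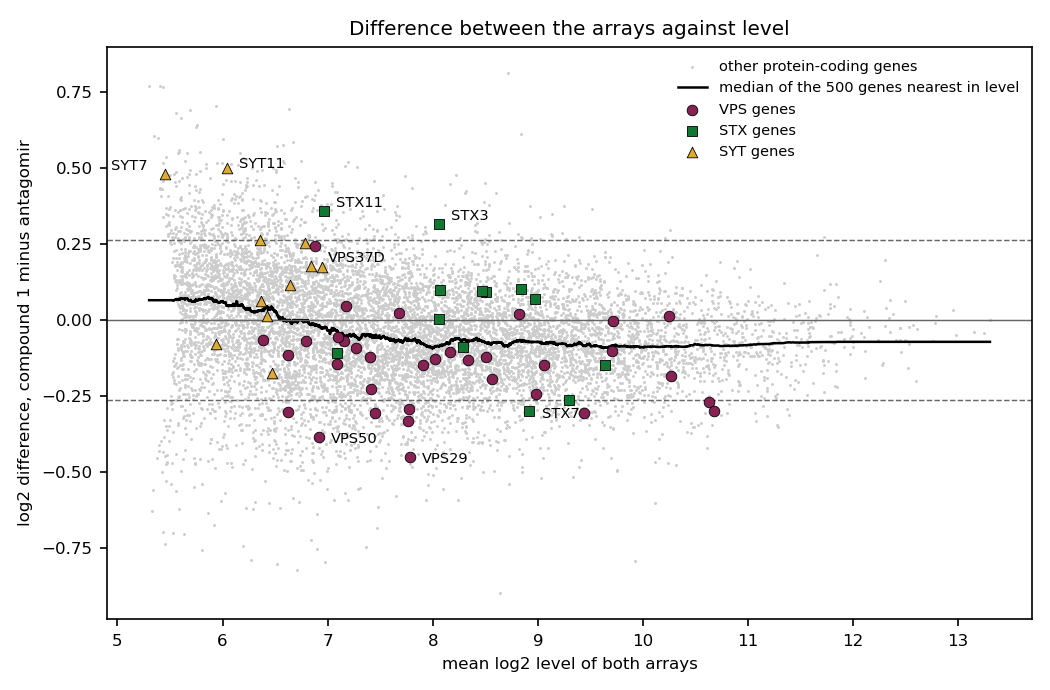
Each point is 1 protein-coding gene that entered, with the mean log2 level of both arrays on the x axis and the log2 difference, compound 1 minus antagomir, on the y axis. Circles are VPS, squares STX and triangles SYT genes, grey points are all others, the black line is the median of the 500 genes nearest in level and the dashed lines mark 1.2-fold. Most circles lie under the black line. The triangles lie at the left, and at their levels that line is between -0.026 and 0.065.

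The difference between the arrays ran with level, which bears on families that sit at different levels. The entering genes were divided by level into 4 bands of 2396. In the lowest band the median difference of all genes was 0.055 and 38.9% were lower, and in the highest band it was -0.078 and 73.6% were lower. Of the 11 SYT genes 7 lay in the lowest band, where 2 were lower and their median was 0.064, close to the 0.055 of all genes there. The other 4 lay in the second band, where 0 were lower and the median was 0.18 against -0.033 for all genes. Of the VPS genes 11 of 13 in the second band, 9 of 10 in the third and 8 of 10 in the highest were lower, against 55.8%, 67.4% and 73.6% of all genes. Of the STX genes 1 of 2 in the second band, 1 of 6 in the third and 3 of 5 in the highest were lower, with medians of 0.13, 0.094 and -0.15 where all genes had -0.033, -0.073 and -0.078. The STX median was thus below that of all genes in the highest band and above it in the other bands that hold STX genes. With the median of the 500 nearest genes subtracted from each gene, the family medians were -0.070 for VPS, 0.14 for STX and 0.19 for SYT, so the VPS median was nearer to 0 and the STX median farther from it. How far level accounts for each family's position was not tested beyond these values.

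The retromer is a trimer of VPS35, VPS29 and a VPS26 protein that selects cargo on endosomes. VPS29 had the lowest difference of all members, with log2 levels of 8.01 after antagomir and 7.56 after compound 1 (1.37-fold lower), and 132 of the 9584 genes had a lower one. VPS35, the scaffold subunit, was at 10.36 and 10.17. The cargo-arm genes VPS26A (10.25 and 10.26) and VPS26B (8.81 and 8.83) differed by 0.012 and 0.019, and both turned to slightly lower after centring. With the median of the nearest genes subtracted they were higher, by 0.0985 and 0.087. VPS26A was higher by 0.090 after quantile normalization and by 0.085 after cyclic loess. The retromer genes thus did not move as 1 block: VPS29 stood apart, and both VPS26 genes were level on the deposited values. In the related Commander complex VPS35L was at 7.52 and 7.30 and VPS26C at 6.83 and 6.76, both lower.

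The HOPS and CORVET tethers share a core of VPS11, VPS16, VPS18 and VPS33A and differ in the end subunits, VPS39 and VPS41 in HOPS and VPS8 with its partner in CORVET. VPS11 was at 7.93 after antagomir and 7.60 after compound 1 (1.26-fold lower). The HOPS-specific subunits had near-equal differences, with VPS39 at 9.60 and 9.29 (1.24-fold lower) and VPS41 at 6.77 and 6.47 (1.23-fold lower). The remaining subunits lay closer to equality: VPS33A differed by -0.11, VPS8 by -0.065 and VPS18 by 0.022. The VPS18 difference was -0.0072 after centring, 0.075 after quantile normalization and 0.064 after cyclic loess. VPS16 is not analysed here. VPS33B, the Sec1/Munc18 subunit of the related CHEVI tether, differed by -0.15.

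GARP and EARP return endosomal vesicles to the trans-Golgi network and to recycling endosomes. They share VPS51, VPS52 and VPS53, and VPS54 completes GARP where VPS50 completes EARP. VPS50 had the second lowest difference of all members, at 7.11 after antagomir and 6.72 after compound 1 (1.31-fold lower). VPS51 was at 7.92 and 7.62 (1.23-fold lower) and VPS52 at 10.83 and 10.53 (1.23-fold lower). VPS54 was at 7.16 and 7.02, and VPS53 was level at 9.72 and 9.71, a difference of -0.0015 that turned to higher after quantile normalization and cyclic loess. Of these 5 genes 3 were lower past 1.2-fold, beside 9.12% of all genes.

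**Figure D2:**
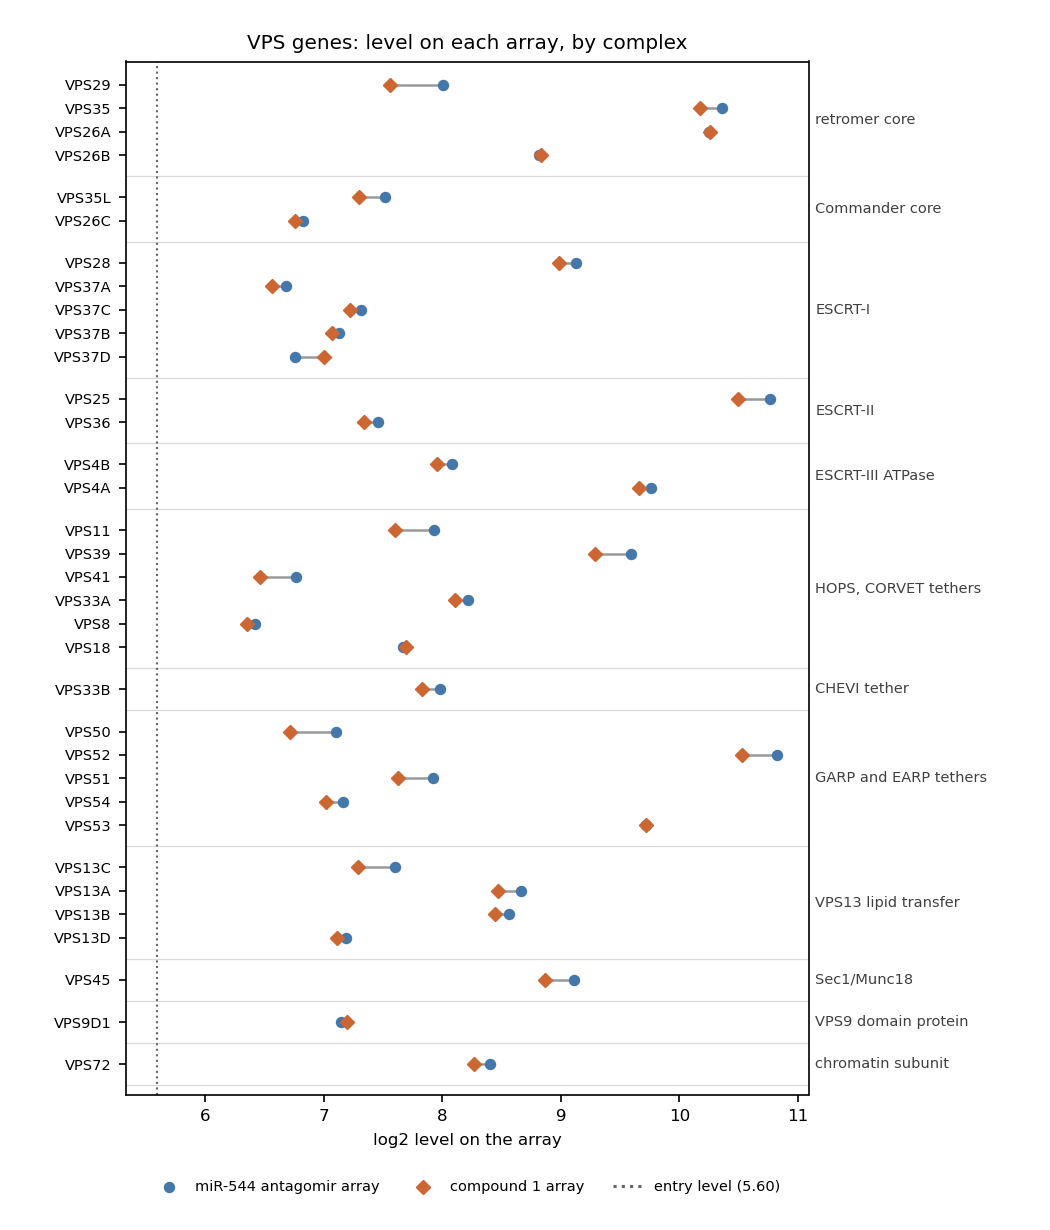
Log2 level of the 34 VPS genes on the antagomir array (circles) and the compound 1 array (diamonds), grouped by complex, with the entry level as a dotted line. Each gene is to be read across the arrays only, and diamonds lie left of circles for 29 of the 34 genes, with VPS37D as the widest gap the other way.

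The ESCRT machinery buds vesicles into endosomes and cuts membrane necks from inside, also in cell division. VPS25 of ESCRT-II was at 10.76 and 10.49 (1.21-fold lower) and VPS36 of the same complex at 7.46 and 7.34. In ESCRT-I, VPS28 differed by -0.15, VPS37A by -0.12 and VPS37C by -0.093. VPS37B differed by -0.056 in the cluster used and by 0.13 in its other entering cluster, so its direction depends on that choice. VPS37D was the only VPS gene higher by more than 0.1, at 6.76 and 7.005 (1.19-fold higher), and 576 of the 9584 genes were higher still. The paralogous ATPases VPS4A and VPS4B, which disassemble ESCRT-III filaments, differed by -0.10 and -0.13.

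The VPS13 proteins are long bridges that carry lipids between organelles. VPS13C was at 7.60 and 7.29 (1.24-fold lower), VPS13A at 8.66 and 8.47, VPS13B at 8.56 and 8.44 and VPS13D at 7.19 and 7.12. All 4 paralogs were thus lower, beside 58.9% of all genes. With the median of the nearest genes subtracted, VPS13C was at -0.25, VPS13A at -0.12, VPS13B at -0.047 and VPS13D at -0.019. VPS45, the Sec1/Munc18 protein of endosomal syntaxins, was at 9.11 and 8.86. VPS9D1, a gene with a VPS9 domain, differed by 0.048. VPS72 belongs to the family by name but encodes a subunit of chromatin remodelling complexes, and it differed by -0.13.

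Only 3 VPS genes had more than 1 named cluster. Both clusters of VPS52 were lower, with differences of -0.30 and -0.31, and 1 of them shares both of its values with an unnamed cluster. VPS51 had a cluster under the entry level at 5.56 and 5.51, with a difference of -0.054 where the cluster used had -0.29. The pairs thus gave like values for VPS52, unlike sizes for VPS51 and unlike signs for VPS37B.

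Among syntaxins of the plasma membrane, STX11, which is needed for granule release by cytotoxic lymphocytes, was at 6.78 after antagomir and 7.14 after compound 1 (1.28-fold higher). STX3, a syntaxin of apical surfaces and granules, was at 7.90 and 8.22 (1.24-fold higher), and 292 of the 9584 genes were higher still. STX4, the widely expressed plasma membrane syntaxin, was at 8.42 and 8.52. STX1A, the neuronal syntaxin, was level at 8.06 and 8.07. Its sign turned after centring, and with the median of the nearest genes subtracted it was higher by 0.090. STX2 was at 8.33 and 8.25. Thus 4 of these 5 genes were higher, the level STX1A included, beside 40.0% of all genes. Past 1.2-fold 2 of them were higher, beside 5.23% of all genes. STX19 did not enter, at 4.21 and 4.59.

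The endosomal and trans-Golgi syntaxins lay on opposite sides of 0. STX7, the syntaxin of late endosomes, was at 9.07 and 8.77 (1.23-fold lower), and STX10 of the trans-Golgi network was at 9.43 and 9.16 (1.1995-fold lower). STX12 of recycling endosomes was at 8.46 and 8.55, STX6 of the trans-Golgi network at 8.02 and 8.12 and STX8 of late endosomes at 8.79 and 8.89. The last 3 were higher by 0.091 to 0.10, while STX7 and STX10 were lower by 0.30 and 0.26. STX7 and STX8, which act in the same late endosomal SNARE complex, thus lay on opposite sides, a direction kept under all scalings tried. In the early secretory pathway STX5 was at 8.94 and 9.01 and STX18 at 9.71 and 9.56, and STX17, the syntaxin of autophagosomes, was at 7.14 and 7.04.

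All 5 entering calcium-binding synaptotagmins were higher on the compound 1 array, where 40.0% of all entering protein-coding genes were. In the lowest band of level, which held SYT1, SYT7 and SYT10, 38.9% of all genes were lower. Of the 8 calcium-binding members, SYT3 (5.52 and 5.52), SYT6 (5.57 and 5.56) and SYT9 (5.17 and 4.98) did not enter. SYT7, a high-affinity sensor of slow release and of lysosome exocytosis, was at 5.21 and 5.69 (1.40-fold higher). After antagomir it lay under the entry level, and it entered only through its value after compound 1, so its difference had to be positive. SYT10 was at 6.23 and 6.49 (1.1992-fold higher) and SYT2, a fast sensor of transmitter release, at 6.66 and 6.91 (1.19-fold higher). SYT5 was at 6.75 and 6.93 and SYT1, the main fast sensor of forebrain synapses, at 6.33 and 6.40. Without SYT7 the other 4 were higher by 0.064 to 0.26.

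The synaptotagmins that bind no calcium, or for which this is not settled, were mixed. SYT11, which lacks calcium binding and acts in endocytosis, had the highest difference of all members, at 5.79 after antagomir and 6.29 after compound 1 (1.41-fold higher), and 43 of the 9584 genes were higher still. SYT17 was at 6.85 and 7.03 and SYT8 at 6.59 and 6.70. SYT15 was level at 6.42 and 6.43, with a sign that turned after centring, quantile normalization and cyclic loess. SYT12 was lower, at 6.56 and 6.38, and so was SYT13, at 5.98 and 5.90. SYT4 and SYT14 of this group did not enter, nor did the calcium-binding SYT3, SYT6 and SYT9. The differences of all these genes, from -0.18 for SYT9 to 0.16 for SYT14, moved the family median to 0.090 when included. Then 5 of 16 genes were lower.

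**Figure D3:**
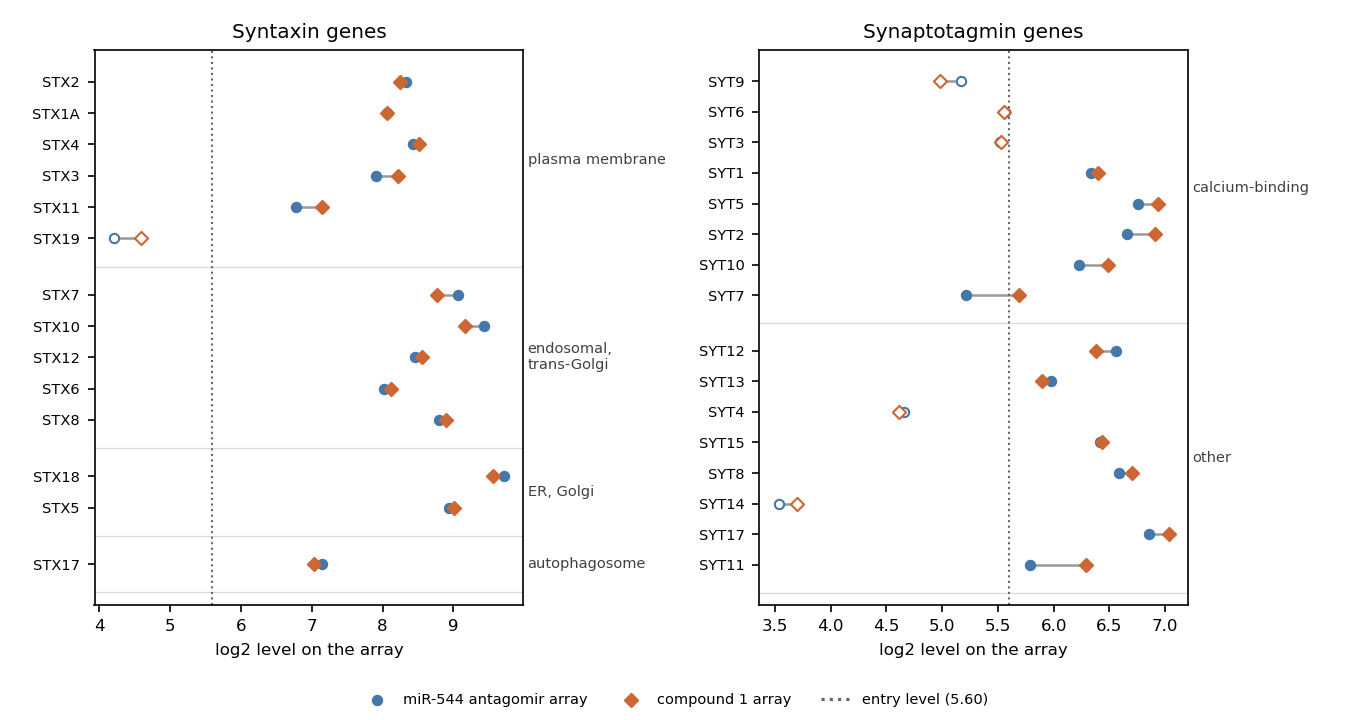
Log2 level of the 14 syntaxin genes (left) and 16 synaptotagmin genes (right) on the antagomir array (circles) and the compound 1 array (diamonds), grouped by compartment or calcium binding. Open symbols are the 6 genes under the entry level, the dotted line. Among calcium-binding synaptotagmins with filled symbols every diamond lies right of its circle.

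Synaptotagmins are neuronal in name, and markers of neurons and neuroendocrine cells were read beside them. Of 9 such genes SYP, GAP43 and CHGA entered, with differences of -0.14, -0.089 and 0.013. GAP43 entered only through its value after antagomir (5.65, against 5.56), so its difference had to be negative. MAP2 (5.37 and 5.57), STMN2 (5.43 and 5.59) and CHGB (5.04 and 4.98) did not enter. The markers thus differed in both directions, and their part in the SYT differences was not tested. Of the leukocyte markers CD68 and SPI1 entered, with differences of -0.006 and -0.14 (median -0.072), where 58.9% of all genes were lower. CD14 (5.18 and 5.48) and LYZ (4.96 and 5.44) did not enter. The markers KDR, VWF and CLDN5 of endothelium were higher by 0.017 to 0.11, where 40.0% of all genes were higher. PECAM1 (5.32 and 5.57) did not enter.

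Genes that work with the families were read from separate lists, each a different set of genes on the same arrays. Of the retromer, WASH and Commander partners 21 of 22 entering genes were lower (95.5%, beside 58.9% of all genes), with a median of -0.16 (quantile normalization gave -0.096 and cyclic loess -0.10). Past 1.2-fold 6 of them were lower and 0 higher, beside 9.12% and 5.23% of all genes. COMMD1, a Commander subunit, had the lowest difference, at 6.20 and 5.82, and COMMD2 was the 1 gene that was higher, at 7.15 and 7.21. The sorting nexins SNX1 (7.86 and 7.54), SNX17 (9.58 and 9.28) and SNX5 (9.13 and 8.86), which bend membrane or bind cargo for these coats, were past 1.2-fold as well.

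SNAREs other than syntaxins did not share the syntaxins' lean. The list of other SNAREs also holds NSF, which is not a SNARE and differed by -0.11. Of 18 entering genes, NSF included, 17 were lower (94.4%, beside 58.9% of all genes), with a median of -0.11. Quantile normalization gave -0.040 with 12 lower, beside 49.4% of all genes, and cyclic loess -0.044 with 14 lower, beside 51.3%. BET1, an ER to Golgi SNARE, was lowest at 5.79 and 5.47, but it entered only through its value after antagomir, so its difference had to be negative. It was followed by VTI1A at 7.34 and 7.06, and YKT6 was the 1 gene that was higher, at 8.21 and 8.26. VTI1B and VAMP7, which form late endosomal SNARE complexes with STX7 and STX8, differed by -0.16 and -0.17. VAMP8 of the same list differed by -0.042, where the median of the genes nearest in level was -0.073. The difference between syntaxins and other SNAREs was not tested.

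The counts of the remaining lists stand beside 58.9% of all genes lower and a median over all genes of -0.041. ESCRT genes without a VPS name were lower in 13 of 16, with a median of -0.063, from CHMP4A (6.44 and 5.98) to CHMP4C (7.41 and 7.71), and 8 and 7 of them were lower after quantile normalization and cyclic loess, with medians that turned to 0.0073 and 0.0080. Other tethering subunits were lower in 23 of 30, with a median of -0.054 (quantile normalization gave 0.0014 and cyclic loess -0.00052), from the exocyst gene EXOC6 (8.02 and 7.55) to EXOC6B (9.25 and 9.39). Sec1/Munc18 proteins and other syntaxin regulators were lower in 8 of 14, with a median of -0.056 (quantile normalization gave 0.0010), from SCFD2 (8.78 and 8.46) to STXBP6 (5.79 and 5.99). Relatives of the synaptotagmins with C2 domains were higher in 7 of 10 (70.0%, beside 40.0% of all genes), with a median of 0.052, from SYTL2 (5.92 and 5.75) to SYTL1 (5.72 and 6.07).

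**Figure D4:**
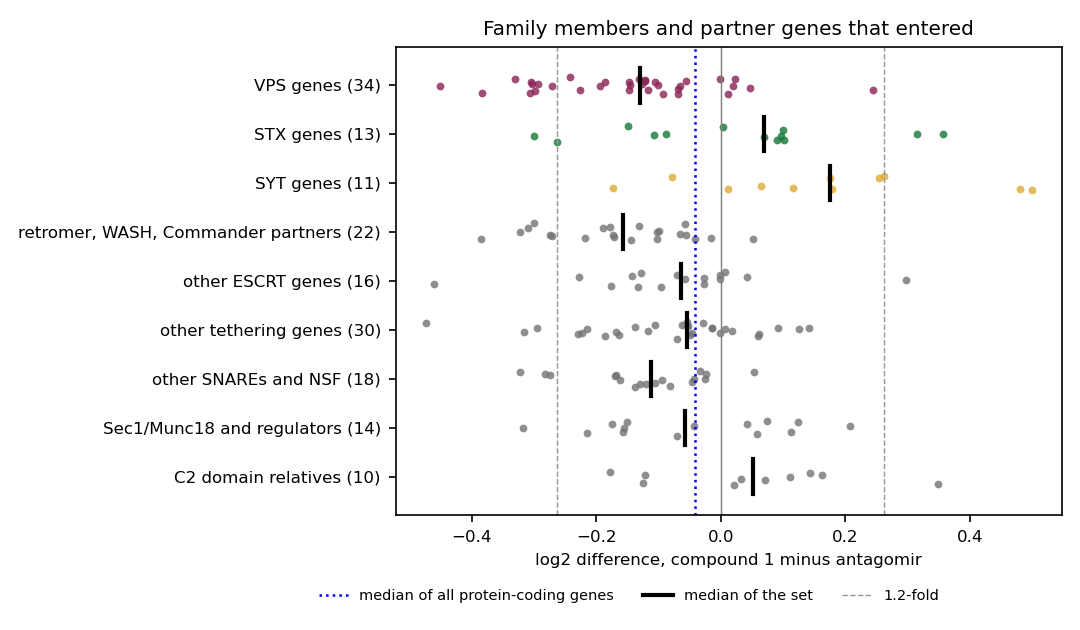
Log2 difference, compound 1 minus antagomir, of each entering gene (points) in the 3 families and the 6 partner lists, with the number of genes in brackets, the median of each set as a black bar, the median of all protein-coding genes as a dotted line and 1.2-fold as dashed lines. The bars of VPS genes and of retromer partners lie farthest left and that of SYT genes farthest right.

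Promoter stretches of 7 members past 1.2-fold are printed so that the sequence can be read beside the values. They are VPS29, VPS50 and VPS11, the lowest VPS genes, both STX genes higher past 1.2-fold (STX3 and STX11), SYT11, and VPS25, which was picked after its match to ACGTG was seen. Each runs from 110 bases before to 10 bases after a RefSeq start (GRCh38.p14), 5′ to 3′ on the strand of the gene. Capitals mark CACGTG, the E-box core of the lysosomal CLEAR element, or ACGTG, the core of hypoxia response elements, searched on both strands together with TGACGTCA, the cAMP response element. CACGTG contains ACGTG, so their counts overlap. The stretches lie at chr12:110502102-110502221 (VPS29, minus strand), chr7:93232256-93232375 (VPS50), chr11:119067708-119067827 (VPS11, the upstream of 2 starts), chr17:42773339-42773458 (VPS25), chr11:59755266-59755385 (STX3), chr6:144150407-144150526 (STX11) and chr1:155859457-155859576 (SYT11), all but the first on the plus strand.
VPS29: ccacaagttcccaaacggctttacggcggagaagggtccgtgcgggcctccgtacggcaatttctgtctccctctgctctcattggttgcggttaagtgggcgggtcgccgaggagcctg
VPS50: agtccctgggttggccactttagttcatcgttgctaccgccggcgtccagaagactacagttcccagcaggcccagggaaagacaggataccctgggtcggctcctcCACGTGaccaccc
VPS11: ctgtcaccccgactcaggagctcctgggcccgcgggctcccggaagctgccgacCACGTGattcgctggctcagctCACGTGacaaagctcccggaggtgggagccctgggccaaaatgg
VPS25: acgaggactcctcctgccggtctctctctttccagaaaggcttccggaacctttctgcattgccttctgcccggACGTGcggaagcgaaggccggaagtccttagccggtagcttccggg
STX3: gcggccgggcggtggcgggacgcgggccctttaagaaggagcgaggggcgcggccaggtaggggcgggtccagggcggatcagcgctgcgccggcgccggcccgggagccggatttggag
STX11: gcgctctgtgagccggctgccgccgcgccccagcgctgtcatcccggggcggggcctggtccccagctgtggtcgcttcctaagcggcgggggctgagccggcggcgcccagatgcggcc
SYT11: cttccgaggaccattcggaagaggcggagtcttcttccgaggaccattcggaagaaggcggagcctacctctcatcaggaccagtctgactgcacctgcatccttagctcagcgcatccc

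VPS11 held CACGTG 2 times, beginning 56 and 34 bases before its start, and VPS50 held it once, beginning 3 bases before its start. VPS25 held ACGTG only. Over the table's full windows, 250 bases before to 50 after any start of a gene, CACGTG was found in 2 of the 9 VPS genes lower past 1.2-fold (VPS11 and VPS50) and in 4 of 13 STX genes (STX2, STX4, STX6 and STX18), against 8.77% of all 27305 genes in the table and 7.26% of its 35116 windows. ACGTG was found in 3 of the 9 and 6 of the 13, against 24.9% of genes and 21.4% of windows. TGACGTCA was found in 0 of the 9 and 1 of the 13 (STX12), against 2.25% and 1.85%. No filter on gene type was applied to the shares over all genes and windows, whereas all members are protein-coding. The 4 STX genes with CACGTG had differences of both signs, from -0.15 for STX18 to 0.10 for STX6. No count over all VPS or all SYT genes is given, since only 70.6% and 68.8% of them were matched to the promoter table, against 92.9% of STX genes. The 9 VPS genes were thus not compared with the other VPS genes.

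Several non-coding genes carry a stem of a member's name. VPS13A-AS1, antisense to VPS13A, was at 6.64 and 6.77, higher where VPS13A was lower, and STX18-AS1 was at 6.50 and 6.65, higher where STX18 was lower. VPS9D1-AS1 was at 6.96 and 6.85, lower where VPS9D1 was slightly higher. The sources used here do not say whether the array keeps the strands apart.

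**Figure D5:**
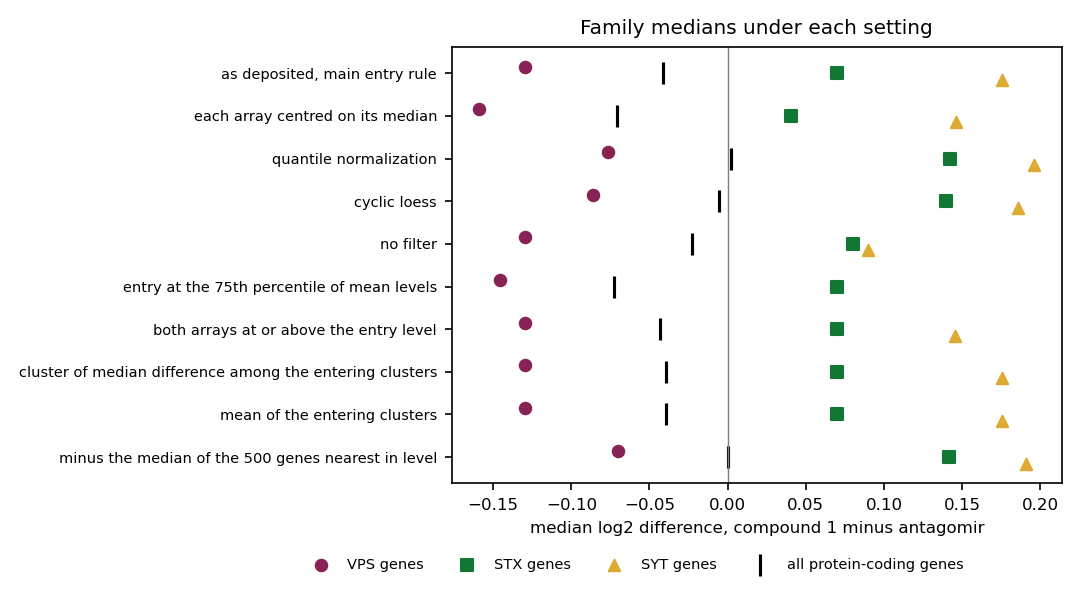
Median log2 difference, compound 1 minus antagomir, of the entering VPS (circles), STX (squares) and SYT (triangles) genes and of all protein-coding genes (bars) under the main setting and 9 alternatives. The VPS medians lie left of 0 and the STX and SYT medians right of it in every setting drawn, and no SYT gene entered at the 75th percentile.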

How the data were processed

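The deposited table gives 1 log2 value per transcript cluster and array, from biotinylated cRNA made from 5 µg of total RNA, per the labels' protocols. The scale is read from the range of the values. The sources used here do not give log base, background correction or normalization. The probe table pairs 16098 of the 53617 clusters with a single symbol and 0 with several, which leaves 37519 without a name here. The RefSeq table of GRCh38.p14 held all 16098 identifiers and gave the gene types, and 0 symbols changed.

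The main setting applied no further scaling. Where several clusters of a gene entered, that of highest mean stood for it. Differences are compound 1 minus antagomir. The background is the 9584 entering protein-coding genes. Members, lists and thresholds were chosen with earlier results of these data known. All members may be named. Of each partner list the highest and the lowest gene are named by rule. VTI1A, VTI1B, VAMP7, VAMP8, SNX1, SNX5 and SNX17 were chosen after their values were seen. Alternatives were 3 scalings, 3 filters, 2 cluster choices, 3 fold thresholds and, chosen after seeing the data, the median of the 500 nearest genes subtracted. The number of arrays limits the precision. The computation was tested on simulated data. Analyses used Python 3.11.15, numpy 2.4.6, pandas 2.3.3, matplotlib 3.10.9, R 4.3.3 and limma 3.58.1.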

Additional observations from a re-analysis of the deposited data

How the results depend on the processing

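With 1 array per treatment no value has a replicate error, and SYT genes near the entry level are the least certain. No paired analysis was possible because there is a single array for each treatment. For a family or list median, a move was counted when it exceeded the robust SD of its members' differences divided by the square root of their number. The VPS median of -0.13 became -0.16 after centring, -0.0765 after quantile normalization, -0.086 after cyclic loess and -0.070 against the nearest genes. VPS genes past 1.2-fold numbered 5 instead of 9 after quantile normalization (4 lower, 1 higher) and 5 after cyclic loess (all lower), while the share of all genes lower past 1.2-fold went from 9.12% to 6.33% and 7.08%, and the share higher from 5.23% to 5.76% and 5.01%. The STX median of 0.070 became 0.14 after quantile normalization (0.143) and cyclic loess (0.140) and against the nearest genes (0.141). The SYT median was 0.090 with no filter, with 5 genes lower instead of 2. When both arrays had to reach the entry level, 1 SYT gene was past 1.2-fold instead of 2, and at the 75th percentile 0 SYT genes entered, so no SYT value could be given. At 1.1-fold 17 VPS genes (16 lower, 1 higher), 5 STX genes (3 lower, 2 higher) and 7 SYT genes (1 lower, 6 higher) passed. Of all genes 27.7% were lower and 15.5% higher past that threshold. At 1.5-fold and 2-fold 0 of each passed, beside 0.365% of all genes lower and 0.167% higher at 1.5-fold and 0% at 2-fold.

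The median of C2 domain relatives moved by less than this spread in each alternative, and those of the other partner lists moved in some. In the order quantile normalization, cyclic loess and nearest genes subtracted, they were 0.0073, 0.0080 and 0.014 for ESCRT genes (-0.093 after centring), 0.0010, -0.0091 and 0.012 for syntaxin regulators (0.059 with no filter and -0.15 at the 75th percentile), -0.040, -0.044 and -0.038 for other SNAREs (-0.14 after centring), -0.096, -0.10 and -0.087 for retromer partners, and 0.0014, -0.00052 and -0.0024 for other tethers (-0.083 after centring). For single members, all 505 differences under alternatives lay closer to the main difference than the robust SD of the 500 genes nearest in level. That allowance is wide for most members. It was 0.115 for VPS26A, whose difference was 0.012, and 0.166 for VPS29, whose difference was -0.45. Part of this outcome was fixed in advance. A filter left the difference of an entering member unchanged, and cluster choice could change it only for genes with several entering clusters. The 14 members past 1.2-fold were picked for the size of their differences. They kept their direction in every alternative in which they entered, which for that reason says little about how stable they are.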
